A study of Mus musculus with 37 samples.

Results

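A set of 10 human gene IDs, the rows for 2 mitochondrial rRNAs and 8 mitochondrial mRNAs, was followed across 37 libraries of mouse splenocytes. The rows were found by their Ensembl number among the 60708 IDs of the count table. Their names, taken from the list that defined the set because the files pair no ID with a name, were MT-RNR1 (ENSG00000211459.2), MT-RNR2 (ENSG00000210082.2), MT-ND1 (ENSG00000198888.2), MT-ND2 (ENSG00000198763.3), MT-CO1 (ENSG00000198804.2), MT-CO2 (ENSG00000198712.1), MT-ATP6 (ENSG00000198899.2), MT-CO3 (ENSG00000198938.2), MT-ND4 (ENSG00000198886.2) and MT-CYB (ENSG00000198727.2). The set was selected on measured values in part, because a high MT-RNR2 value in the SPP1 comparison of the washed cultures was already known when it was drawn up. That comparison is therefore given below as a description, without a test, and so are the other comparisons that use the washed libraries.

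The splenocytes came from wild-type FVB mice. In 12 of the 13 groups they were kept for 48 h with RAW264.7, a mouse macrophage-like cell line, or with its medium. Before that, the RAW cells had been grown for 72 h at 21% oxygen (normoxia) or at 1% oxygen (hypoxia). SPP1 (osteopontin, a secreted protein) was either added at 1 µg/mL or left out. The labels give 3 modes of exposure: the culture medium of the RAW cells (medium), the RAW cells as they were (cells), and the RAW cells after their medium had been washed off (washed). Each combination of mode, oxygen and SPP1 had 3 libraries, except medium with normoxia and no SPP1, which had 2, and the naive splenocytes, which received no exposure, also had 2. All cultures received Brefeldin A before collection, according to a protocol shared by every library. The study used female mice and describes the experiments as independently replicated. The age of the splenocyte donors and whether replicates came from separate animals were not stated, so p-values measure the spread between these libraries. Because the IDs carry no names, splenocyte and macrophage markers were not checked, and carry-over of RAW cells into the collected splenocytes was not tested.

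The mitochondrial genome encodes a small-subunit rRNA (MT-RNR1), a large-subunit rRNA (MT-RNR2) and the mRNAs for core subunits of the respiratory chain and ATP synthase. Both rRNAs belong to the mitochondrial ribosome, which translates those mRNAs. All are cut from long shared transcripts and receive short adenine tails or a few added adenines, and mitochondrial RNA is usually among the most abundant RNA of a cell. The libraries were primed with oligo-dT, which anneals to adenine tails and can also anneal to adenine runs inside a transcript.

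The reads of these mouse samples had been aligned by the authors to a human genome, so each value counts the mouse reads that aligned to a human gene. Absolute levels are limited by this, and a low value cannot be read as little RNA. Mitochondrial sequences also have copies in nuclear chromosomes, and how reads with several alignments were counted was not stated, so the transcript behind each of the 10 IDs is uncertain. The mouse sequences themselves are shown for the 2 rRNAs because they are of the same class and were counted so differently. They are from the GENCODE M21 annotation of GRCm38, plus strand, printed 5′ to 3′ in lower case with adenine runs of at least 6 bases in capitals. The mouse mt-Rnr1 transcript lies at chrM:70-1024, has 955 bases and holds 0 such runs. The mouse mt-Rnr2 transcript lies at chrM:1094-2675, has 1582 bases and holds 4 of them. The last 60 bases of each, at chrM:965-1024 and chrM:2616-2675, and the surroundings of the 4 adenine runs, at chrM:1437-1476, chrM:1471-1511, chrM:1539-1578 and chrM:2253-2292 in that order, read as follows.
mt-Rnr1 end: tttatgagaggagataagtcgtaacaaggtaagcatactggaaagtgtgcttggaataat
mt-Rnr2 end: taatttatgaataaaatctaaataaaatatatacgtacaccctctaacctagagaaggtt
mt-Rnr2 run a: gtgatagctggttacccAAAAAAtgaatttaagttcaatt
mt-Rnr2 run b: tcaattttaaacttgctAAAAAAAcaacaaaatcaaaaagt
mt-Rnr2 run c: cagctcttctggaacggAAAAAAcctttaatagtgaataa
mt-Rnr2 run d: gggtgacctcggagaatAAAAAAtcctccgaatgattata

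Runs of this kind (AAAAAA or longer, on the transcript strand) were found in 8 of the 37 annotated mouse mitochondrial transcripts (21.6%) and in 5 of the 10 transcripts named here. Transcript length was not taken into account, so these shares are not comparable. Among the mRNAs, mt-Nd2 held 3, mt-Nd4 held 2, and mt-Nd1 and mt-Co1 held 1 each. A run is a description of the letters, and whether any run served as a priming site was not tested. For the transcripts with runs, the human IDs had 29384 counts (MT-RNR2), 3 (MT-ND4), 1 (MT-ND1) and 0 (MT-ND2 and MT-CO1). For those without runs, MT-CO3 had 2 counts and the others 0. A count also depends on mouse reads aligning to the human gene, and a link between runs and counts was not tested.

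MT-RNR2 was counted in all 37 libraries and the other rRNA in none. The libraries held 631574 to 1337314 counts each (median 1063211), 39892977 in all. MT-RNR2 took 29384 of them, between 311 and 4501 per library with a median of 551. MT-RNR1 had 0 counts in 37 libraries, which allows a share of up to 7.52e-06% of all counts, from a floor of 3 counts. Per library that floor corresponded to 2.01 to 4.97 CPM (counts scaled to a common library size, with TMM scaling), below the lowest MT-RNR2 value of 287.3 CPM. Intervals and floors cover counting error only.

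The mRNA IDs were at or near 0 throughout. MT-ND2, a subunit of respiratory complex I, had 0 counts in every library, as did MT-CO1 and MT-CO2, the catalytic core subunits of cytochrome c oxidase, MT-ATP6, a subunit of ATP synthase, and MT-CYB, the cytochrome b of complex III. MT-ND1, also of complex I, had 1 count, in replicate 1 of the washed normoxia SPP1 group. MT-CO3, the remaining core subunit of cytochrome c oxidase, had 1 count in each of 2 libraries, replicate 1 of cells hypoxia no SPP1 and replicate 3 of medium normoxia without SPP1. MT-ND4, of complex I, had 1 count in cells hypoxia no SPP1 replicate 1 and 2 counts in washed normoxia no SPP1 replicate 1. The 8 mRNA IDs thus had 6 counts in total, spread over 4 libraries, and 33 libraries had 0.

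**Figure D1:**
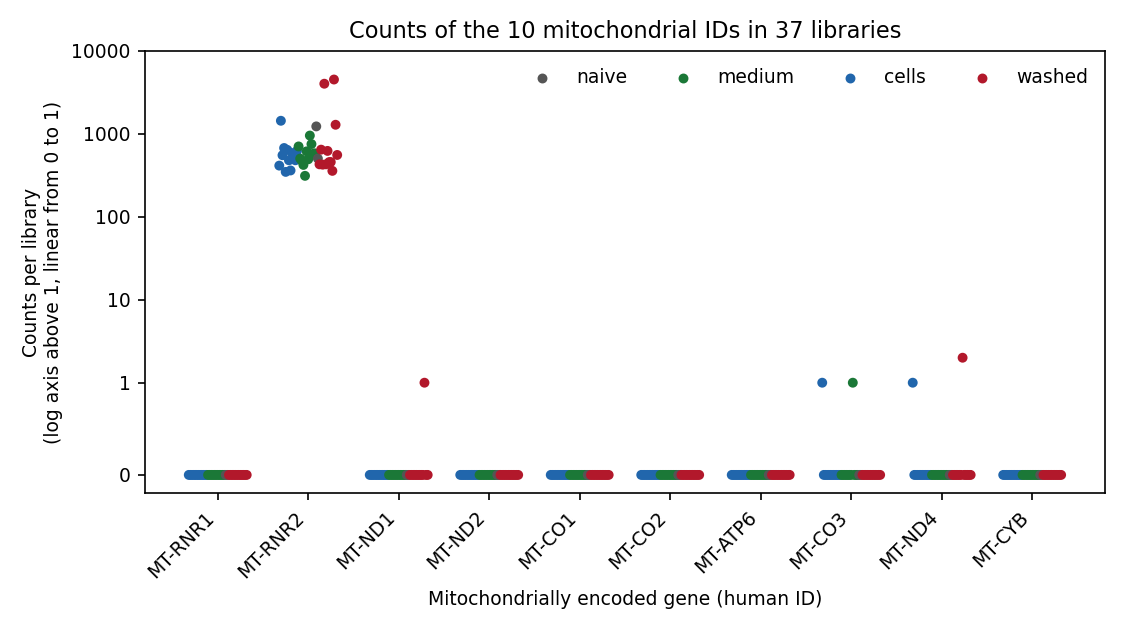
Counts of each of the 10 IDs in each of the 37 libraries, one point per library, coloured by mode of exposure; the vertical axis is logarithmic above 1 and linear from 0 to 1. MT-RNR2 sits between 311 and 4501 counts, and each of the other 9 IDs at 0 to 2.

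Summed over the libraries, rRNA counts outnumbered mRNA counts by 4897 to 1, and the rRNA share of the 10 IDs was 99.98%. With 6 mRNA counts in all, neither the ratio nor the mRNA level could be compared between groups: no difference was detectable from so few counts. The counts are of mouse reads that aligned to human genes, so the ratio is not one of RNA amounts. Only MT-RNR2 (1 of 10) passed the filter on low counts, which kept 5193 IDs out of 22657 that had any count, and the comparisons below are about that single ID.

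MT-RNR2 had a median of 496.3 CPM over the 37 libraries and reached 7456 CPM, 15.0 times that median. In the naive splenocytes it was 1197 CPM in replicate 1 and 653.9 CPM in replicate 2. These 2 libraries differed from each other by 1.83-fold, and both lay above the median of all libraries.

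In the medium cultures without SPP1, MT-RNR2 was 329.0 and 663.4 CPM in normoxia (replicates 2 and 3) and 541.9, 454.7 and 412.3 CPM in hypoxia. With SPP1 it was 595.1, 546.0 and 592.9 CPM in normoxia and 407.3, 287.4 and 550.6 CPM in hypoxia. All 11 medium libraries stayed between 287.4 and 663.4 CPM, and the hypoxia and normoxia ranges overlapped at both SPP1 levels.

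In the cells cultures without SPP1 it was 456.2, 360.9 and 457.1 CPM in normoxia and 496.3, 1678 and 543.0 CPM in hypoxia. With SPP1 it was 421.2, 401.7 and 461.4 CPM in normoxia and 536.5, 287.3 and 523.8 CPM in hypoxia. Replicate 2 of the hypoxia group without SPP1 was the 1 high library here, and the other 11 lay between 287.3 and 543.0 CPM. Without SPP1 the hypoxia range lay above the normoxia range, and with SPP1 the ranges overlapped.

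In the washed cultures without SPP1 it was 471.4, 424.1 and 369.9 CPM in normoxia and 412.6, 670.7 and 472.2 CPM in hypoxia. With SPP1 it was 7456, 1484 and 504.1 CPM in normoxia and 6447, 393.0 and 524.3 CPM in hypoxia. Of the 6 washed SPP1 libraries 3 were high, and the other 3 lay inside the range of the washed libraries without SPP1.

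**Figure D2:**
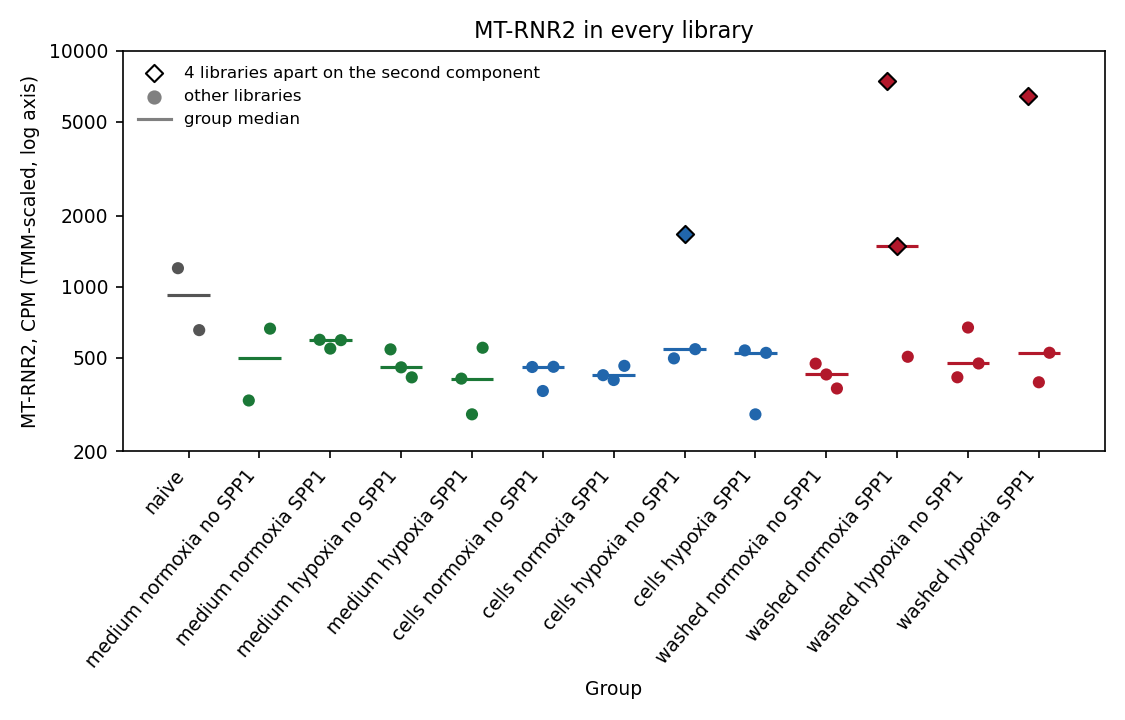
MT-RNR2 in CPM (log axis) in each library of the 13 groups; lines are group medians and diamonds mark the 4 libraries that stood apart on the second principal component of all tested IDs. The 4 diamonds lie between 1484 and 7456 CPM and the other exposed libraries between 287.3 and 670.7 CPM.

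The 4 high libraries, replicate 1 of washed hypoxia SPP1, replicates 1 and 2 of washed normoxia SPP1 and replicate 2 of cells hypoxia no SPP1, were also the 4 highest on the second principal component of log2 CPM over the tested IDs (12.3% of the variance). The lowest of them was 2.21 times the highest of the other 31 exposed libraries. They held 38.2% of all MT-RNR2 counts (11223 of 29384) and 8.51% of the counts of all IDs. MT-RNR2 ranked 22, 30, 110 and 132 by count in these 4 libraries, and between 147 and 601 in the others (median 403). As a share of the library it was 0.651% in washed normoxia SPP1 replicate 1, with an exact (Clopper-Pearson) 95% interval of 0.632% to 0.670%. In replicate 3 of the same group it was 0.0462% (0.0424% to 0.0502%). A count may include PCR copies, so these intervals cover the counting of reads only. The 4 libraries had 691539 to 979573 counts, 7102 to 9132 IDs with a count against 8388 to 10852 in the others, and 19.2% to 24.4% of counts in their top 10 IDs against 12.1% to 24.0%. Of 2 IDs picked after their values were seen, ENSG00000080824.19 was 28030 to 53820 CPM in the 4 libraries and 1407 to 12170 CPM in the others. ENSG00000263934.5 was 440.3 to 962.1 CPM in the 4 and, in the others, 898.1 CPM in washed hypoxia no SPP1 replicate 2 and at most 83.4 CPM elsewhere. The part of these library differences in the MT-RNR2 values was not tested. No RNA integrity value per library was used, and fewer cells of a type cannot be told apart from less RNA per cell in such bulk samples.

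Ordered by median, the groups were washed normoxia SPP1 (1484 CPM), naive (925.5), medium normoxia SPP1 (592.9), cells hypoxia no SPP1 (543.0), washed hypoxia SPP1 (524.3), cells hypoxia SPP1 (523.8), medium normoxia no SPP1 (496.2), washed hypoxia no SPP1 (472.2), cells normoxia no SPP1 (456.2), medium hypoxia no SPP1 (454.7), washed normoxia no SPP1 (424.1), cells normoxia SPP1 (421.2) and medium hypoxia SPP1 (407.3). The ranges of all neighbours in this order overlapped, except those of naive and medium normoxia SPP1.

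The spread of MT-RNR2 between replicates was wide for an ID of its level. Its pooled within-group SD of log2 CPM was 0.951, against a median of 0.571 over all 5193 IDs, and it exceeded that of 99.1% of the 432 IDs within 1 log2 unit of its mean level. Without the 4 libraries its SD was 0.349, against a median of 0.486, and it exceeded that of 81.5% of the same 432 IDs. The SD of 0.951 includes the high washed SPP1 libraries through which MT-RNR2 was selected, so its rank is a description.

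MT-RNR2 was compared with the naive libraries for each mode, averaging the 4 groups of that mode. The test was edgeR's quasi-likelihood test with Benjamini-Hochberg adjustment over the 5193 IDs. No culture time is given for the naive libraries, so exposure cannot be told apart from the 48 h of culture in these comparisons. With all libraries, the medium and cells differences did not pass an adjusted p of 0.05. In medium the log2 fold change was -0.93 (SE 0.569, adjusted p = 0.211). In cells it was -0.83 (SE 0.566, adjusted p = 0.295). Fitted on only the groups compared, both passed, at -1.04 (edgeR adjusted p = 0.00477) and -0.89 (adjusted p = 0.0317). For washed it was 0.30 (SE 0.618), as a description. Of all IDs tested, 32.4%, 27.3% and 34.5% were called in these 3 comparisons, which share the naive libraries.

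The 4 libraries apart were the exposed libraries with the most MT-RNR2, so values without them depend on the measured level and are given as a description. In that fit, of 5885 IDs, the log2 fold change against naive was -0.87 (SE 0.232) for medium, which lost no library, -0.99 (SE 0.230) for cells and -0.93 (SE 0.243) for washed. There 18.9%, 17.4% and 20.5% of all IDs were called lower. The naive arm had 2 libraries, and when replicate 1 was also left out the differences were -0.33, -0.45 and -0.39, with SE of 0.309, 0.306 and 0.314. In single libraries, 29 of the 31 other exposed libraries lay below the lower naive value of 653.9 CPM, and the other two (663.4 and 670.7 CPM) lay just above it.

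The modes were then compared with each other. Between cells and medium the log2 difference in MT-RNR2 was 0.10 (SE 0.334, edgeR adjusted p = 0.827), with 48.7% of all IDs called. The comparisons with washed draw on the washed SPP1 libraries through which MT-RNR2 was selected, so they are described without a p-value. The fitted log2 difference was 1.23 (SE 0.341) between washed and medium, where 58.7% of all IDs were called and 28.6% were called higher. It was 1.13 (SE 0.327) between washed and cells, where 7.24% of all IDs were called and 4.16% were called higher. In the fit across all IDs MT-RNR2 was called in both, but on the values that selected it, so these calls are no evidence. For washed against cells it was no longer called with a replicate block (0.95), with only the groups compared (1.15), or in 6 of 24 fits that left out 1 library, of which the lowest, without replicate 1 of washed hypoxia SPP1, gave 0.52.

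Both washed differences rested on the 4 libraries apart. Without them MT-RNR2 differed by -0.054 (SE 0.154) between washed and medium, and by 0.063 (SE 0.154) between washed and cells. Mean levels were then 471.4 ± 90.7 CPM (SD, n = 9) in washed, 449.6 ± 78.4 CPM (SD, n = 11) in cells and 489.1 ± 119 CPM (SD, n = 11) in medium. With all 12 washed libraries the mean was 1636 ± 2510 CPM (SD) and the median 488.1 CPM.

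**Figure D3:**
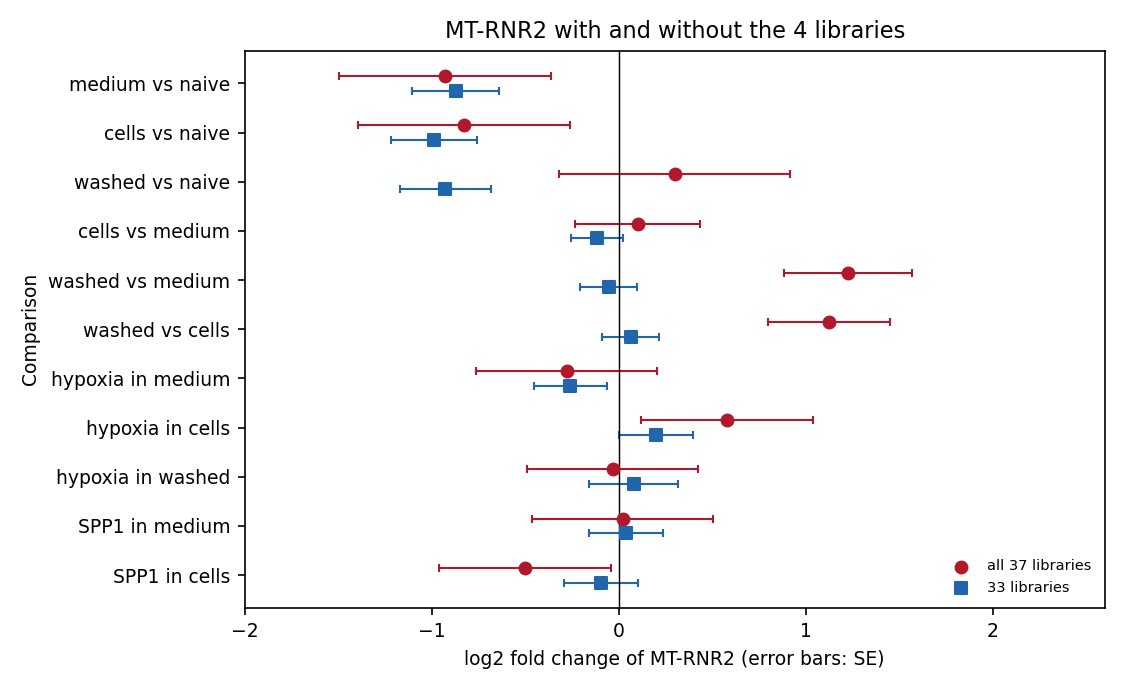
log2 fold change of MT-RNR2 in 11 comparisons, from all 37 libraries (circles) and from the 33 left without the 4 libraries apart (squares); bars are SE. The washed differences from medium and cells move from 1.23 and 1.13 to -0.054 and 0.063, and washed against naive from 0.30 to -0.93.

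Hypoxia of the RAW cells was compared with normoxia within each mode, over both SPP1 levels. The log2 fold change of MT-RNR2 was -0.28 (SE 0.484, edgeR adjusted p = 0.949) in medium and 0.58 (SE 0.459, adjusted p = 0.552) in cells, and neither passed. In washed it was -0.03 (SE 0.457), as a description. Of all IDs, 0.077%, 3.62% and 0.0385% were called. Without the 4 libraries the differences were -0.26, 0.20 and 0.08, with SE of 0.196, 0.197 and 0.238. The difference in the effect of hypoxia did not pass between cells and medium either, at 0.86 (SE 0.666, edgeR adjusted p = 0.785), where 0.481% of all IDs were called. Between washed and cells it was -0.61 (SE 0.647), as a description, with 0.173% called.

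SPP1 was compared with no SPP1 over both oxygen levels. In medium the log2 fold change of MT-RNR2 was 0.02 (SE 0.486, edgeR adjusted p = 0.995), with 0.25% of all IDs called. In cells it was -0.50 (SE 0.459, adjusted p = 1), and 0 IDs (0.0%) were called by edgeR or by DESeq2, while 87 had an unadjusted edgeR p under 0.05. The SPP1 effect differed between cells and medium by -0.52 (SE 0.669, adjusted p = 0.986), where again 0 IDs (0.0%) were called by either tool and 255 had an unadjusted edgeR p under 0.05. Without the 4 libraries the SPP1 difference was 0.04 (SE 0.197) in medium and -0.10 (SE 0.197) in cells.

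In washed, the comparison through which MT-RNR2 entered the set, the fitted difference between SPP1 and no SPP1 was 2.57 on the log2 scale. It is a description. The fit called 0.0193% of IDs there (1 of 5193), and that 1 ID was MT-RNR2 itself. Its high value there was already known at selection, so that call is no evidence. The mean was 2801 ± 3254 CPM (SD, n = 6) with SPP1 and 470.2 ± 106 CPM (SD, n = 6) without it, and the medians were 1004 and 447.8 CPM. Within the normoxia SPP1 group the highest library was 14.8 times the lowest, and within the hypoxia SPP1 group 16.4 times. Without the 3 washed libraries that stood apart, the remaining SPP1 libraries had 504.1, 393.0 and 524.3 CPM, and the difference was 0.065. The highest cells library, 1678 CPM, came from a group without SPP1.

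The IDs most like MT-RNR2 across libraries were named by rule as the pair with the highest and the pair with the lowest Pearson correlation of log2 CPM. ENSG00000270672.1 had r = 0.93 over the 37 libraries and 0.65 without the 4. It was 327.9 to 1635 CPM in the 4 libraries apart and 36.97 to 236.2 CPM in the other 33. ENSG00000256045.3 had r = 0.86, and 0.48 without the 4. In the opposite direction, ENSG00000108389.10 had r = -0.90, and -0.34 without the 4, with 33.8 to 127.2 CPM in the 4 libraries and 179.3 to 499.9 CPM in the others. ENSG00000169139.12 had r = -0.89, and -0.47 without the 4. The correlations describe points that share libraries and depth, and every one of them was weaker in the 33 libraries. Whether any of these IDs is a nuclear copy of the mitochondrial sequence, and so counts the same reads, was not checked. The likeness of the other 9 mitochondrial IDs could not be computed or was not meaningful, since 6 had 0 counts everywhere and 3 had 1 to 3 counts.

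**Figure D4:**
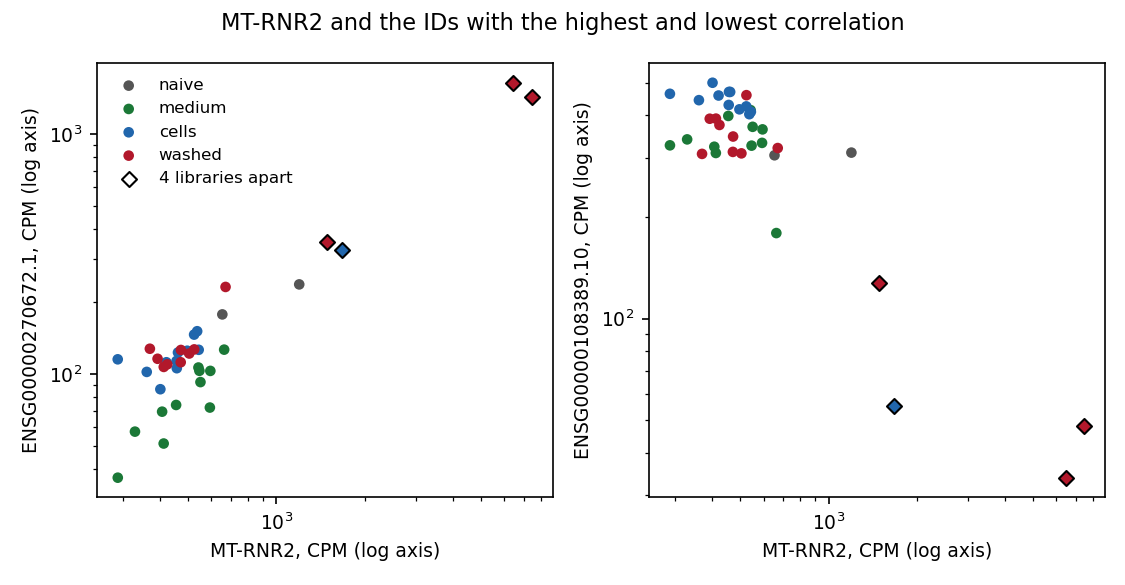
MT-RNR2 in CPM against ENSG00000270672.1 (left) and ENSG00000108389.10 (right), both axes logarithmic, one point per library coloured by mode, with diamonds for the 4 libraries apart. The diamonds reach 1635 CPM on the left and lie at 127.2 CPM or below on the right.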

How the data were processed

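Libraries were made with an oligo-dT-primed QuantSeq 3′ kit with molecular identifiers. Whether these entered the counting was not stated, so counts may include PCR copies. The authors trimmed reads with bbduk, aligned them to GRCh38 (hg38) with STAR 2.7.10b and deposited raw counts per gene from featureCounts (Rsubread 2.0.3); 100% of values were whole. The annotation release is not given in the sources used here. Protocol text requires a minimum RNA integrity and quotes a range below it. The study's methods give no test for these libraries.

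Groups came from treatment labels and replicate numbers from titles. In R 4.3.3, IDs were kept by filterByExpr (minimum count 10) and scaled by TMM. They were fitted with edgeR 4.0.16 in 1 quasi-likelihood model of 13 groups. The model was tested on simulated counts that held no outlying libraries, so that test does not cover libraries like the 4 that stood apart. SPP1 and hypoxia effects were averaged over the other factor. DESeq2 1.42.0 was an alternative, among other scalings, filters, sample sets and a replicate block.

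The members and lists were chosen with earlier results of these data known. The 10 mitochondrial IDs were named by their list, and other IDs by correlation with MT-RNR2. Planned pathway and marker lists were not run because human IDs were not paired with names here. A floor of 3 counts limits detection in each library.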

Additional observations from a re-analysis of the deposited data

Results flagged for a closer look

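Within each mode, MT-RNR2 was checked for a library lying far from the rest of its oxygen arm or SPP1 arm, by Dixon's test at the 95% level over 12 arms. That level assumes 1 sample from 1 normal distribution. Each arm pools both SPP1 levels or both oxygen levels, and CPM was not put on a log scale. The rate of flags by chance is therefore not known here. In 5 arms such a library was found, always the highest. In the cells hypoxia arm, and again in the cells arm without SPP1, it was cells hypoxia no SPP1 replicate 2 at 1678 CPM. In the washed hypoxia arm it was washed hypoxia SPP1 replicate 1 at 6447 CPM, and in the washed normoxia arm washed normoxia SPP1 replicate 1 at 7456 CPM. In the washed arm without SPP1 it was washed hypoxia no SPP1 replicate 2 at 670.7 CPM, which is not among the 4 libraries that stood apart. The arms share libraries, so the flags are not independent. MT-RNR2 was also selected through high washed SPP1 libraries, so flags in arms with those libraries are a description. None of the flags can be weighed against chance.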

How the results depend on the processing

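Calls that use the washed libraries or leave out the 4 libraries are descriptions, as above. MT-RNR2, the only mitochondrial ID that could be tested, was called (1) or not called (0) as follows where an alternative changed the call. Medium against naive became 1 with every ID that had a count (log2 fold change -0.80), without the 4 libraries (-0.87), without them and naive replicate 2 (-1.30), and with only the groups compared (-1.04). Cells against naive became 1 without the 4 libraries (-0.99), without them and naive replicate 2 (-1.41), and with only the groups compared (-0.89). Washed against naive became 1 and reversed without the 4 libraries (-0.93), and without them and naive replicate 2 (-1.34), and it reversed, uncalled, without them and naive replicate 1 (-0.39). Washed against medium became 0 and reversed without the 4 libraries (-0.054). Washed against cells became 0 without them (0.063) and with only the groups compared (1.15). The SPP1 difference in washed moved to 0.065 without the 4 libraries. Leaving out the naive library or the 4 libraries was chosen with the data known; for the other changes the cause was not tested.

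Leaving out 1 library at a time kept washed against medium called in 23 of 23 fits (0.62 to 1.41). Fits of washed against medium or cells all kept high washed SPP1 libraries that selected MT-RNR2, so their calls are a description only. Washed against cells ranged from 0 to 1, called in 18 of 24 fits (0.52 to 1.37). The call was lost without replicate 1 of washed hypoxia SPP1 (0.52), replicate 1 of washed normoxia SPP1 (0.73), replicate 1 or 3 of cells hypoxia no SPP1 (1.05 and 1.06), replicate 2 of cells hypoxia SPP1 (1.10) or replicate 2 of washed hypoxia no SPP1 (1.07). The SPP1 difference in washed ranged from 1.38 to 2.87. Washed against naive, uncalled in 14 of 14 fits, ranged from -0.35 (reversed) to 0.90. Library totals instead of TMM moved the median of all IDs by -0.28 for washed against medium and by -0.34 for washed against naive.

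Between groups, deviations of same-numbered libraries correlated at a median of 0.00679 (-0.477 to 0.53), those of other pairs at -0.00124 (-0.51 to 0.486). A median near 0 cannot exclude that some same-numbered libraries were paired. With the replicate block, washed against cells became 0 (0.95), the SPP1 difference in washed was 2.22, also no longer called, and no other MT-RNR2 call changed.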
